A study of Drosophila melanogaster with 8 samples.

Results

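The Wingless pathway genes described here are 10 of the 17559 genes counted in RNA of whole guts from adult Drosophila melanogaster females: the ligand wg, the receptors fz, fz2 and fz3, the feedback inhibitor nkd, the transducers arm and pan, and the destruction complex genes Axn, Apc and sgg. They were chosen as pathway components, by matching their symbols to FlyBase identifiers through the authors' deposited table, and all 10 were matched. In the 4 LamDm0 libraries, a UAS transgene drove LamDm0, the fly's B-type lamin, in enterocytes, which absorb nutrients in the midgut. The 4 control libraries, labelled wt, came from guts expressing GFP from a UAS transgene. Flies of both groups were raised at 18 °C, and 2 to 4 day old females spent 2 days at 29 °C before RNA was taken. The labels name no driver line, and whole-gut RNA mixes all gut cell types, so fewer cells of a type and less RNA per cell cannot be told apart.

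Wingless is a secreted Wnt protein. It binds Frizzled receptors together with the co-receptor Arrow, which inhibits a complex of Axin, Apc and the kinase Shaggy (the product of sgg) that otherwise marks the β-catenin Armadillo for degradation. Stabilised Armadillo enters the nucleus and activates target genes with the TCF factor Pangolin. In the adult fly gut the pathway is known for supporting stem cell proliferation, above all during regeneration, and for patterning along the gut's length. Much of this control acts on protein stability, which RNA counts do not measure.

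Libraries held 19720070 to 36022790 counts. Lam, the gene expressed from the transgene, averaged 3610 ± 957 CPM (counts per 1000000 of a library, with libraries adjusted to each other by TMM, the trimmed mean of M values) in LamDm0 guts and 18.3 ± 1.62 CPM in control guts (SD, n = 4 each), so every library matched its label. Levels of 49 marker genes of 10 cell types or tissues were read. All were tested between the groups except 2 of the 5 fat body markers and the 3 ovary markers, which had too few counts. Of those tested, 1 passed: Amy-p, an amylase gene of enterocytes, was lower. Of all genes tested, 8.03% passed. The summed level of 5 fat body markers, 3 of them yolk protein genes, was 801 to 1750 CPM in LamDm0 and 15.3 to 744 CPM in control libraries. No marker list was absent from the guts except that of the ovary, whose summed level was at most 0.173 CPM in LamDm0 libraries and 0.0986 CPM in controls. Libraries within a group were not equally close. LamDm0 replicates 1 and 2 resembled each other, as did replicates 3 and 4, with a median chi-square per gene of 3.45 and 1.87 within these pairs and 15.6 to 23.7 between them; sampling noise alone gives 0.455. The same pairs were the closest in the control group, at 1.45 and 2.94 against 7.11 to 8.84. For this measure libraries were scaled by their totals and not by TMM, so its values include differences in library composition. TMM factors were 0.943 and 0.924 in LamDm0 replicates 1 and 2, against 1.205 and 1.22 in LamDm0 replicates 3 and 4. The labels give no batch or day for a library. No pair was close enough to be a library deposited more than once.

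None of the 10 Wingless pathway genes passed the test between LamDm0 and control guts. By the quasi-likelihood test of edgeR, adjusted over 8794 genes by the Benjamini-Hochberg method, 0 of the 10 were called higher and 0 lower. On simulated counts the same test called 9.5% of genes changed 1.5-fold and 52.2% of those changed 2-fold, so smaller changes are mostly missed. Of all genes tested, 8.03% were called, 4.76% higher and 3.26% lower. At an unadjusted p under 0.05 there was 1 of the 10, fz3, which was higher, against 23.9% of all genes in either direction and 13.2% higher. DESeq2 and limma-voom each called 0 of the 10, where they called 12.3% and 7.78% of the genes they tested. The groups overlapped for each of the 10, whereas 17.3% of all genes tested showed no overlap. The largest change among the 10 was 0.32 on the log2 scale in absolute size, exceeded by 36.7% of the genes tested. Their median log2 fold change was 0.02, with 5 positive and 5 negative, beside a median of 0.01 over all genes tested. In the authors' deposited table the smallest adjusted p among the 10 was likewise that of fz3, at 0.156.

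**Figure D1:**
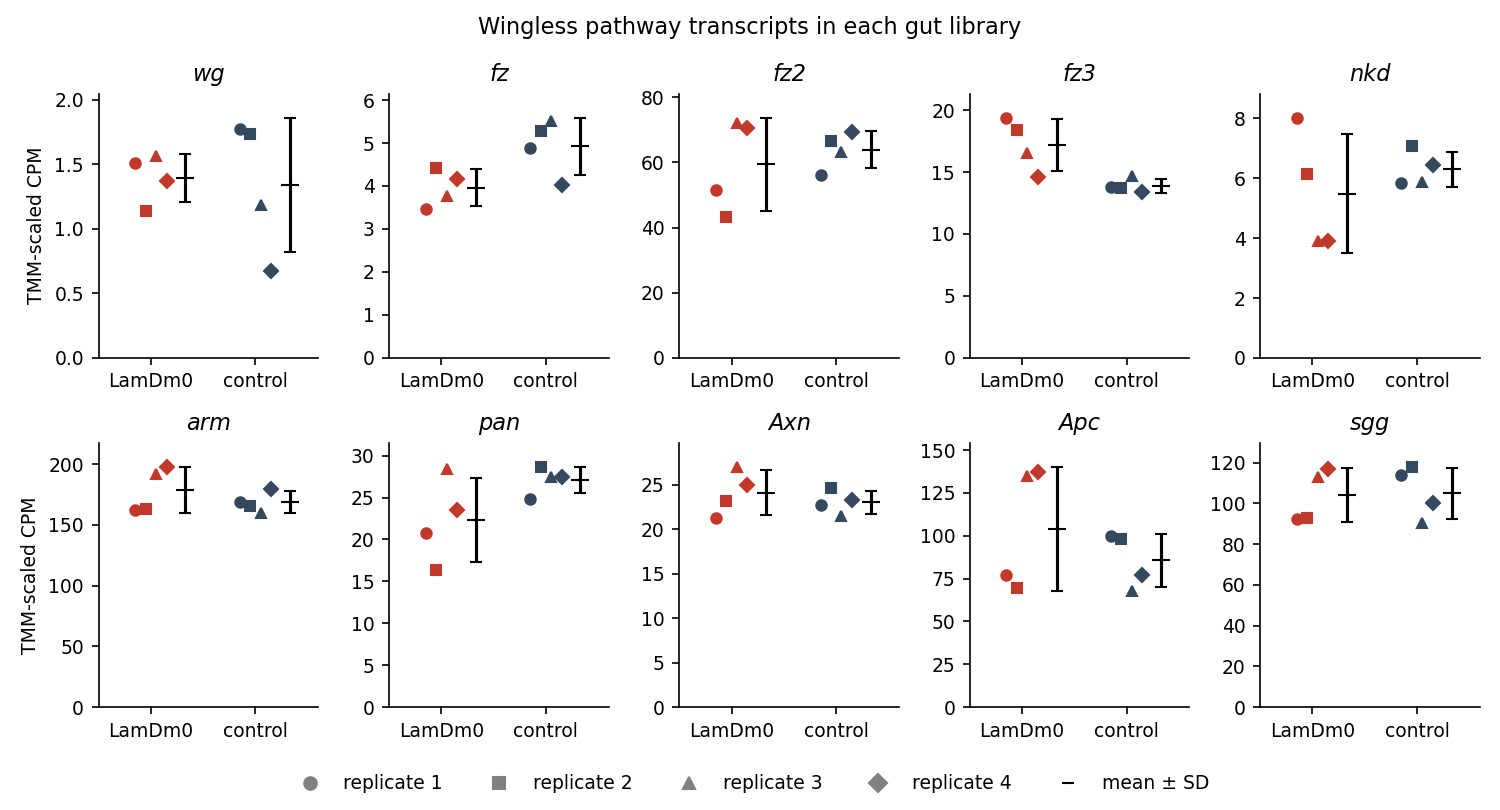
TMM-scaled CPM of each Wingless pathway gene in the 4 LamDm0 and 4 control libraries, with the mean and SD beside the points; symbols mark the replicate number and each vertical axis starts at 0. The groups overlap for every gene. All genes but wg and fz spread more widely among LamDm0 libraries than among controls, sgg only slightly.

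The ligand gene wg (FBgn0004009 in the files; chromosome arm 2L, 7307159 to 7316265 on the plus strand in BDGP6.54) was the scarcest of the 10. It had 38, 24, 45 and 60 counts in LamDm0 replicates 1 to 4 and 37, 34, 24 and 14 counts in control replicates 1 to 4. Scaled, these were 1.51, 1.14, 1.56 and 1.37 CPM in LamDm0 guts, against 1.77, 1.73, 1.18 and 0.669 CPM in control guts. All LamDm0 values lay within the range of the controls, whose replicate 4 was the lowest library. The change in wg was estimated at 0.06 ± 0.32 on the log2 scale (SE; edgeR's adjusted p = 0.93). Its 95% interval ran from a fold of 0.635 to 1.71, the widest of the 10, so smaller changes were not detectable at this depth.

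The receptor genes fz (3L, 14274343 to 14368639, plus strand) and fz2 (3L, 19140975 to 19235373, minus strand) encode the Frizzled proteins that act redundantly as Wingless receptors. The fz transcript also serves planar cell polarity. It had 3.46, 4.43, 3.77 and 4.16 CPM in LamDm0 replicates 1 to 4, against 4.88, 5.29, 5.52 and 4.02 CPM in control replicates 1 to 4. Every LamDm0 library lay below the control median, but control replicate 4 fell inside the LamDm0 range. Its log2 fold change came to -0.32 ± 0.15 (adjusted p = 0.26, edgeR), with a 95% interval of 0.63 to 1.02 in fold.

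The fz2 transcript was more abundant and less even. It had 51.7, 43.3, 72.2 and 70.7 CPM in LamDm0 replicates 1 to 4, against 56.2, 66.6, 63.3 and 69.3 CPM in control replicates 1 to 4. LamDm0 replicates 1 and 2 lay below every control and replicates 3 and 4 above every control. Over all libraries its log2 fold change stood at -0.10 ± 0.17 (adjusted p = 0.77, edgeR).

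The gene fz3 (X, 769945 to 784222, plus strand) encodes a further Frizzled receptor and is itself a transcriptional target of Wingless signalling. It came closest to the threshold of the 10. It had 19.4, 18.4, 16.5 and 14.6 CPM in LamDm0 replicates 1 to 4, against 13.8, 13.7, 14.7 and 13.4 CPM in control replicates 1 to 4. All 4 LamDm0 libraries lay above the control median, and LamDm0 replicate 4 fell just below the highest control. The means were 17.2 ± 2.12 and 13.9 ± 0.559 CPM in LamDm0 and control guts (SD, n = 4 each), a 1.24-fold difference with an unadjusted 95% interval of 1.04 to 1.47 and an adjusted p of 0.13 (edgeR). An exact two-sided permutation test of the means of fz3 gave p = 0.057, the smallest of the 10 genes so tested, where the design allows 0.029 at best. With library totals in place of TMM, the log2 fold change of fz3 was 0.48 and its adjusted p 0.043; under that scaling the median of all tested genes was 0.20, and relative to it fz3 stood at 0.28. Over all 18 alternatives its adjusted p ran from 0.043 to 0.73, the latter with libraries summed in pairs.

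Within the frizzled family, the 4 genes fz, fz2, fz3 and fz4 can be compared by their share of the family's CPM per kb of exon, which no scaling of libraries affects. The fz3 share was 29.4, 28.2, 20.2 and 18.3% in LamDm0 replicates 1 to 4, against 19.8, 19.4, 19.8 and 17.3% in control replicates 1 to 4. It was higher than in any control in LamDm0 replicates 1, 2 and 3, while replicate 4 lay within the control range. The fz2 share averaged 40.4 ± 5.34% in LamDm0 and 43.9 ± 2.87% in control guts, and the fz share 5.34 ± 0.897% and 6.62 ± 1.06%. The share of fz4, which is not among the 10 genes, averaged 30.2 ± 2.84% in LamDm0 and 30.4 ± 3.16% in control guts. These shares are a description and were not tested.

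**Figure D2:**
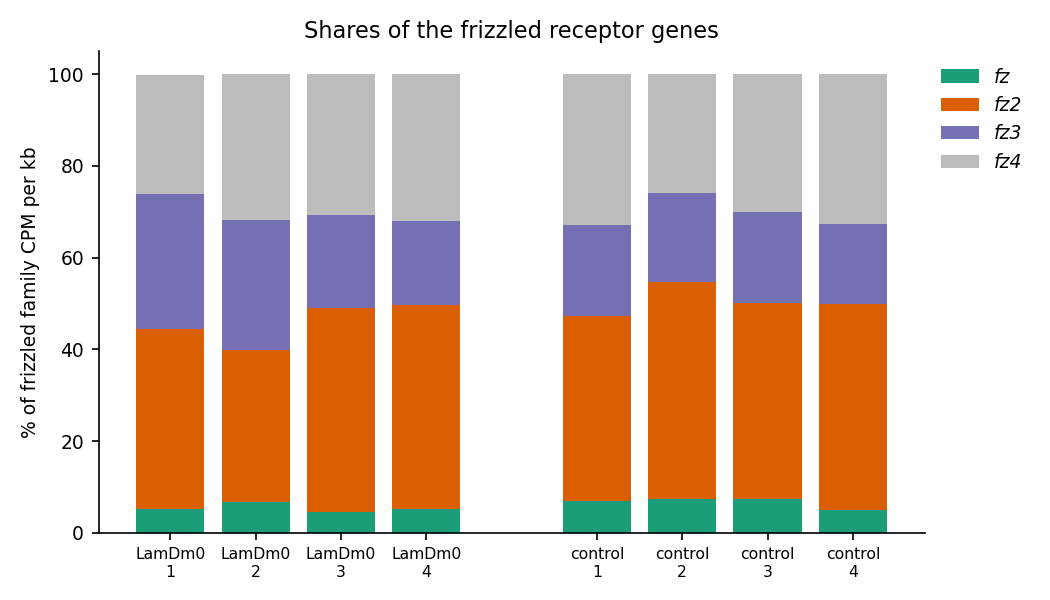
Share of each frizzled gene in the summed CPM per kb of exon of fz, fz2, fz3 and fz4, 1 bar per library with LamDm0 libraries on the left. The fz3 segment takes 29.4% and 28.2% in LamDm0 replicates 1 and 2 and 17.3 to 20.2% in the other 6 libraries.

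The gene nkd (3L, 19003741 to 19045449, minus strand), which encodes the Dishevelled-binding inhibitor Naked cuticle, is a second classical target of the pathway that feeds back on it. It had 8.03, 6.14, 3.91 and 3.89 CPM in LamDm0 replicates 1 to 4, against 5.84, 7.08, 5.87 and 6.46 CPM in control replicates 1 to 4. The LamDm0 libraries spanned the controls on both sides, with replicates 3 and 4 below all of them and replicate 1 above. The coefficient of variation was 36.3% among LamDm0 and 9.27% among control libraries, where the median gene tested had 16.3% and 15.7%. Over all 8 libraries the log2 fold change came to -0.21 ± 0.24 (adjusted p = 0.66, edgeR), and its sign and call rested on which LamDm0 libraries were used. It was -0.69 without LamDm0 replicates 1 and 2 (adjusted p = 0.038, a call) and 0.18 without replicates 3 and 4 (adjusted p = 0.57). The fit with the call kept only LamDm0 replicates 3 and 4, the closest LamDm0 pair, and called 878 genes over all genes. The adjusted p of nkd over 17 alternatives ran from 0.038 to 0.93, the latter with libraries summed in pairs. The targets fz3 and nkd had fold changes of opposite sign over all 8 libraries, and neither passed; the difference between them was not tested.

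Armadillo, the β-catenin that carries the signal and also joins cadherins at adherens junctions, is encoded by arm (X, 1891401 to 1900646, minus strand). It had 162, 163, 192 and 198 CPM in LamDm0 replicates 1 to 4, against 169, 166, 160 and 180 CPM in control replicates 1 to 4. LamDm0 replicates 3 and 4 were the highest of all 8 libraries, and the other 2 lay within the control range. This gave a log2 fold change of 0.08 ± 0.11 (adjusted p = 0.7, edgeR), with a 95% interval of 0.889 to 1.26 in fold.

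The TCF factor gene pan (chromosome 4, 69326 to 114270, plus strand) had 20.8, 16.4, 28.4 and 23.5 CPM in LamDm0 replicates 1 to 4, against 24.8, 28.6, 27.4 and 27.4 CPM in control replicates 1 to 4. LamDm0 replicates 1, 2 and 4 were below every control, and replicate 3 was not. The estimate was -0.28 ± 0.16 on the log2 scale (adjusted p = 0.33, edgeR). Annotated transposon sequences cover 3.88% of its exon length on the opposite strand and 5.18% on the same strand, so part of its count is less certain.

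Of the destruction complex, the scaffold gene Axn (3R, 30022842 to 30035311, plus strand) was even between libraries. It had 21.2, 23.1, 27.0 and 24.9 CPM in LamDm0 replicates 1 to 4, against 22.7, 24.6, 21.5 and 23.3 CPM in control replicates 1 to 4. The 2 highest libraries were LamDm0 replicates 3 and 4 and the lowest was LamDm0 replicate 1. For Axn the log2 fold change came to 0.06 ± 0.10 (adjusted p = 0.75, edgeR), with a 95% interval of 0.89 to 1.23 in fold. Exons of opposite-strand genes cover 7.5% of its exon length.

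The kinase gene sgg (X, 2633952 to 2679553, plus strand), the fly GSK3, had 92.2, 92.7, 113 and 117 CPM in LamDm0 replicates 1 to 4, against 114, 118, 90.4 and 100 CPM in control replicates 1 to 4. Both groups held 2 libraries near the top of the range and had nearly equal means, 104 ± 13.3 CPM in LamDm0 and 105 ± 12.6 CPM in control guts (log2 fold change -0.02 ± 0.13, adjusted p = 0.94, edgeR). A non-coding gene on the same strand covers 11.76% of its exon length.

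The scaffold gene Apc (3R, 28832301 to 28844748, minus strand) had a coefficient of variation of 34.7% among LamDm0 and 18.4% among control libraries. It had 77.1, 69.3, 135 and 137 CPM in LamDm0 replicates 1 to 4, against 99.6, 98.0, 67.7 and 77.1 CPM in control replicates 1 to 4. LamDm0 replicates 3 and 4 were above all controls, while replicates 1 and 2 were within the control range. With all libraries the estimate for Apc was 0.29 ± 0.25 on the log2 scale (adjusted p = 0.53, edgeR), with a 95% interval of 0.822 to 1.81 in fold. It was 0.67 without LamDm0 replicates 1 and 2 (adjusted p = 0.063) and -0.22 without replicates 3 and 4 (adjusted p = 0.53), and its adjusted p over 18 alternatives ran from 0.063 to 0.89.

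**Figure D3:**
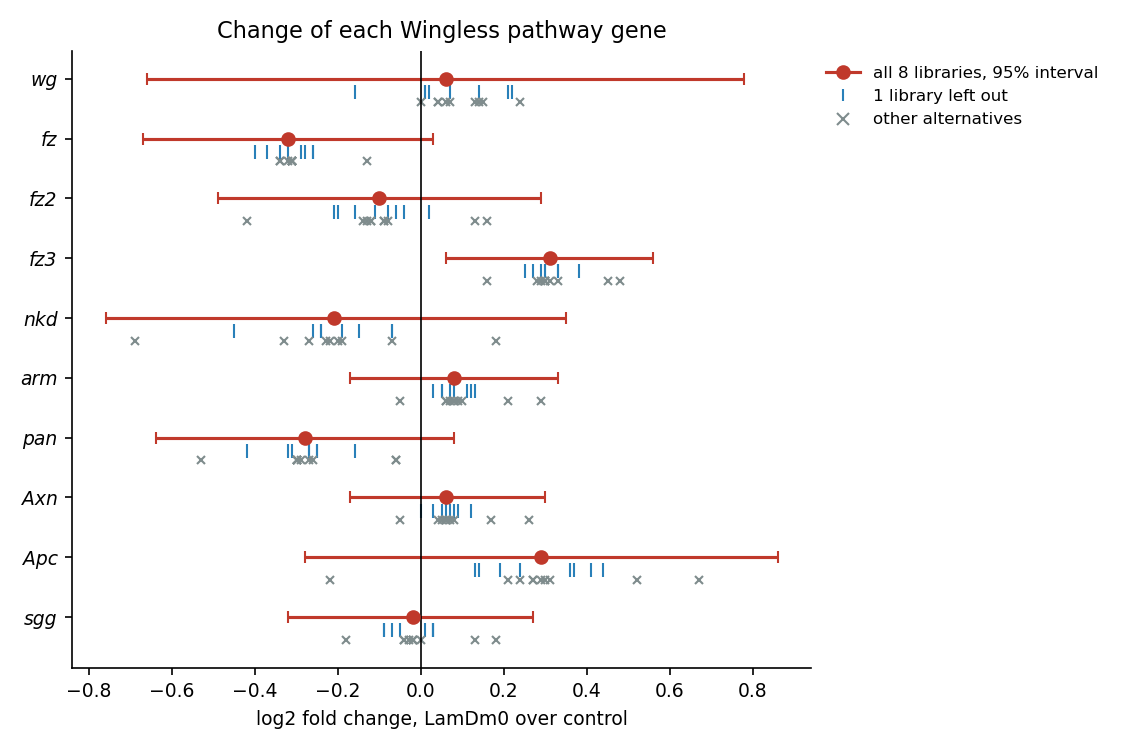
Log2 fold change of each Wingless pathway gene, LamDm0 over control, with its unadjusted 95% interval (red), the values with 1 library left out (blue ticks) and those under other alternatives (grey crosses). The interval of fz3 lies above 0 while its adjusted p is 0.13, and Apc and nkd move the most between alternatives.

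The pairs of LamDm0 libraries thus held most of these genes at different levels. Apc, fz2, arm, sgg, Axn and pan were higher in replicates 3 and 4 than in replicates 1 and 2, and nkd and fz3 were lower. The LamDm0 values of wg and fz did not separate by pair. The pairs also differed over all genes, by the chi-square given above, and the share of all genes that separated by pair was not counted. Among controls, Apc, sgg and wg were lower in replicates 3 and 4 than in replicates 1 and 2. The other members did not separate by pair there. Markers of other cells differed between the same libraries. The summed level of 5 stem cell and enteroblast markers was 46.1, 31.6, 74.2 and 73.6 CPM in LamDm0 replicates 1 to 4, against 41.3, 41.7, 41.3 and 83.3 CPM in control replicates 1 to 4. Enteroendocrine markers, 8 in all, summed to 219, 223, 302 and 309 CPM in the LamDm0 libraries, against 182, 158, 299 and 295 CPM in the controls. Both sums were thus higher in LamDm0 replicates 3 and 4 than in 1 and 2, as was that of the neuron markers. Each of the 5 stem cell and enteroblast markers was higher there too. Of the enteroendocrine markers, NPF and CCHa2 did not separate by pair, and the others were higher in replicates 3 and 4. Summed fat body markers went the other way, at 1520, 1750, 1020 and 801 CPM in LamDm0 replicates 1 to 4. The enterocyte sums did not separate by pair. Visceral muscle markers, also 8, ranged from 859 to 2340 CPM in LamDm0 and from 1090 to 2190 CPM in control libraries. The part of these differences in the levels of the Wingless pathway genes was not tested. None of the lists summed here had a member at 0 in all libraries.

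Levels of different genes were compared per kb of exon. By this measure arm led both groups, at 50.1 ± 5.32 CPM per kb in LamDm0 and 47.4 ± 2.45 CPM per kb in control guts (SD, n = 4 each), and its lowest library lay above the highest of every other of the 10 in either group. Apc came next at 12.3 ± 4.26 CPM per kb in LamDm0 and 10.1 ± 1.85 CPM per kb in control guts. It was followed by sgg (8.3 ± 1.06 in LamDm0, 8.44 ± 1.01 in control) and fz2 (8.01 ± 1.92 in LamDm0, 8.6 ± 0.762 in control), whose ranges overlapped each other and that of Apc. Axn and fz3 formed a lower step, and their ranges overlapped in LamDm0 guts (4.83 ± 0.498 and 4.62 ± 0.57 CPM per kb) but not in control guts (4.62 ± 0.258 and 3.73 ± 0.15 CPM per kb). Below them lay pan, with 1.54 ± 0.346 CPM per kb in LamDm0 and 1.88 ± 0.11 CPM per kb in control guts. Its range overlapped those of nkd and fz in LamDm0 guts. Next came fz and nkd, whose ranges overlapped in both groups, between 0.769 and 1.59 CPM per kb in LamDm0 and between 1.05 and 1.45 CPM per kb in control libraries. The ligand wg was last, with 0.477 ± 0.0638 CPM per kb in LamDm0 and 0.459 ± 0.178 CPM per kb in control guts, and its range met that of no other of the 10.

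**Figure D4:**
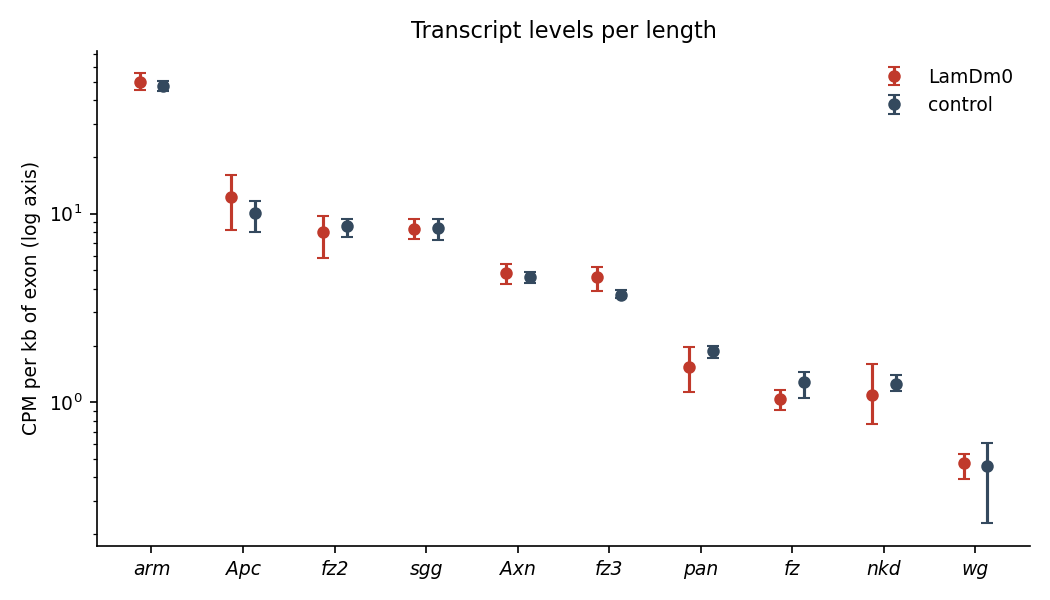
Mean CPM per kb of exon of the 10 genes (log axis), ordered by the control mean, with bars from the lowest to the highest of the 4 libraries in each group. arm stands at 50.1 in LamDm0 and 47.4 in control guts, and wg at 0.477 and 0.459.

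wg lies on 2L in a cluster with Wnt4 (7255419 to 7277171), Wnt6 (7333714 to 7352542) and Wnt10 (7363379 to 7377528). Per kb of exon, Wnt6 was the more abundant of the neighbours, at 0.964 to 1.63 CPM per kb in LamDm0 and 0.874 to 1.39 CPM per kb in control libraries, above every value of wg. Wnt4 was at the level of wg, with 0.433 to 0.614 CPM per kb in LamDm0 and 0.412 to 0.575 CPM per kb in control libraries. Wnt10 had 0 counts in all 8 libraries, and a count of 0 allows up to 0.083 to 0.152 CPM.

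Another 61 genes of the pathway, grouped by role, were read beside the 10. Of these, 48 had enough counts to be tested, and 0 were called higher and 0 lower by edgeR, against 8.03% of all genes tested. At an unadjusted p under 0.05 there were 6 higher and 2 lower, a smaller share than the 23.9% of all genes tested. DESeq2 called 2 genes higher, Cul1 and ebd1, where it called 12.3% of all genes. With limma-voom 0 were called, against 7.78% of all genes. The median log2 fold change was 0.07, against 0.01 over all genes tested, and 60.4% of the 48 had a positive fold change, against 51.3% of all genes tested. These signs, and those given by role below, were not tested. Of the 48, 2 genes, Cul1 and dsh, had groups that did not overlap, against 17.3% of all genes tested.

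Among the other Wnt ligands, 4 of 6 were tested and all 4 had positive fold changes, with a median of 0.47; 51.3% of all genes tested had positive ones. The smallest p was that of Wnt5, a ligand known in the fly for axon guidance. It had 1.03, 0.762, 2.14 and 2.43 CPM in LamDm0 replicates 1 to 4, against 0.91, 0.407, 0.246 and 1.0 CPM in control replicates 1 to 4. LamDm0 replicates 3 and 4 were above all controls. The estimate was 1.32 ± 0.52 on the log2 scale (adjusted p = 0.17, edgeR). Of 8 genes for ligand secretion and extracellular regulation, 6 had positive fold changes. The smallest p was that of wls, whose product carries Wnt proteins to the cell surface (0.31 ± 0.18, adjusted p = 0.33). Notum, a secreted Wnt deacylase induced by Wingless, stood at -0.80 ± 0.48 on the log2 scale (adjusted p = 0.36) from 121 counts in all.

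Among the other receptors and co-receptors, 5 of 7 were tested. The smallest p belonged to dnt, a Ryk family receptor gene (0.51 ± 0.23, adjusted p = 0.22), and the Wingless co-receptor gene arr stood at -0.09 ± 0.12 (adjusted p = 0.7). Of 15 cytoplasmic transducer and destruction complex genes, 14 were tested. The smallest p was that of Cul1, the cullin of the ubiquitin ligase that acts on phosphorylated Armadillo. It had 77.0, 87.8, 95.6 and 95.7 CPM in LamDm0 replicates 1 to 4, against 65.7, 66.5, 70.3 and 75.1 CPM in control replicates 1 to 4. Every LamDm0 library was above every control, and the log2 fold change was 0.36 ± 0.10 (adjusted p = 0.071, edgeR; 0.033 by DESeq2, and 0.033 to 0.68 over 18 alternatives). Opposite-strand exons cover 13.89% of the exon length of Cul1. dsh, which encodes the transducer Dishevelled, stood at 0.28 ± 0.11 on the log2 scale (adjusted p = 0.16, edgeR).

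Of the nuclear cofactors and corepressors, all 10 were tested and 7 had positive fold changes. ebd1, which encodes an Armadillo cofactor, had 7.87, 11.0, 13.5 and 13.9 CPM in LamDm0 replicates 1 to 4, against 7.8, 7.89, 5.57 and 6.03 CPM in control replicates 1 to 4. LamDm0 replicate 1 was level with the highest controls and the other 3 were above them. Its log2 fold change came to 0.76 ± 0.20 (adjusted p = 0.054, edgeR; 0.018 by DESeq2), and it was 0.91 without LamDm0 replicate 1 (adjusted p = 0.023, a call), with adjusted p of 0.018 to 0.41 over 17 alternatives. pygo and lgs, the Pygopus and Legless genes that link Armadillo to transcription, stood at 0.32 ± 0.12 and 0.29 ± 0.13 (adjusted p = 0.15 and 0.21, edgeR).

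Of 15 genes that respond to Wingless in other fly tissues, 7 were tested. These 7 had negative fold changes with a median of -0.29, none past the threshold. Of the 8794 genes tested, 4282 had negative ones. How these genes respond to Wingless in the gut was not tested, so their signs do not measure pathway output. The smallest p was that of ct, a homeobox gene of copper cells, the acid-secreting cells of the middle midgut. It had 2.62, 3.0, 2.77 and 1.02 CPM in LamDm0 replicates 1 to 4, against 7.8, 3.05, 2.46 and 7.03 CPM in control replicates 1 to 4. Control replicates 1 and 4 stood above the other 6 libraries, and the log2 fold change was -1.13 ± 0.46 (adjusted p = 0.18, edgeR). The same 2 libraries had the highest summed level of 3 Malpighian tubule markers, which was 0.636, 10.3, 36.7 and 0.819 CPM in LamDm0 replicates 1 to 4, against 61.3, 17.0, 0.493 and 46.6 CPM in control replicates 1 to 4. None of the 3 markers (Uro, CapaR and Lkr) passed the test, none was at 0 in every library, and their part in the level of ct was not tested. The homeobox gene lab, which specifies copper cells, had 6.64, 6.0, 9.13 and 13.8 CPM in LamDm0 replicates 1 to 4, against 13.1, 15.7, 13.8 and 11.7 CPM in control replicates 1 to 4. LamDm0 replicates 1, 2 and 3 were below every control, and the log2 fold change was -0.60 ± 0.25 (adjusted p = 0.19, edgeR). It was -0.90 without LamDm0 replicate 4 (adjusted p = 0.033, a call), with adjusted p of 0.015 to 0.67 over 18 alternatives. The other 8 genes of this group were too low to test, and Dll, ac and Dfd among them had no count in any library.

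**Figure D5:**
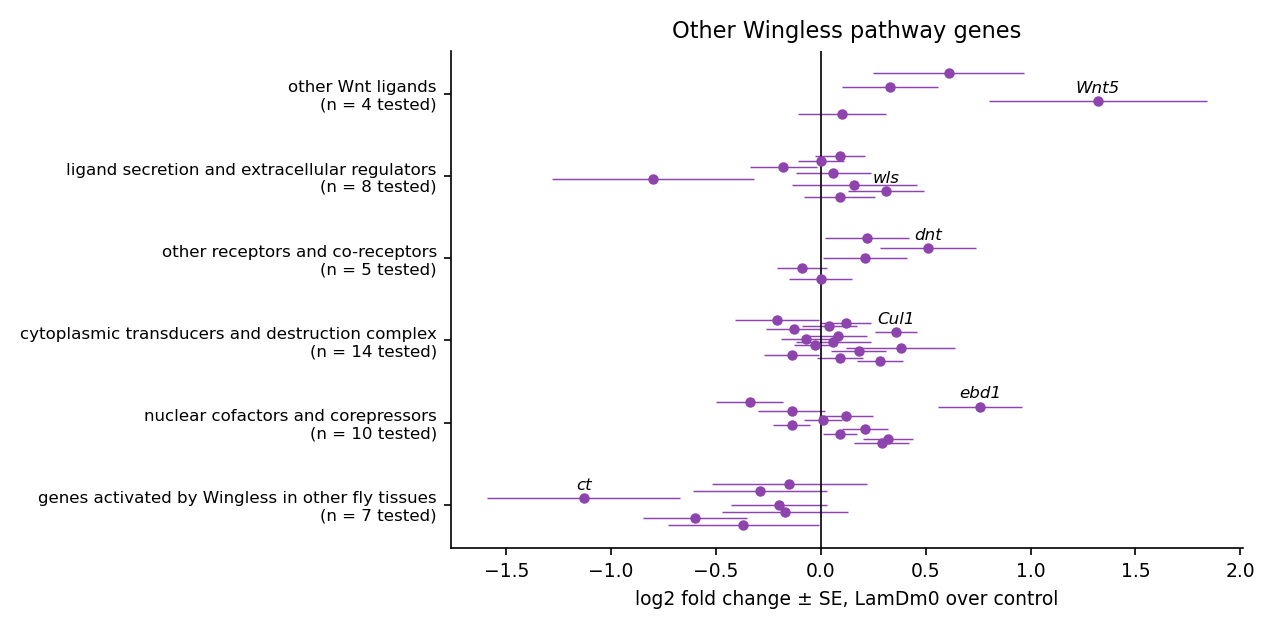
Log2 fold change with its SE of the 48 other Wingless pathway genes tested, LamDm0 over control, by role; the gene with the smallest p in each role is named. 29 of the 48 points lie above 0 and none passed the test.

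The genes whose levels followed those of wg most closely over the 8 libraries were uzip, CG10026 and Cpr67B, with Pearson correlations of log2 CPM of 0.975, 0.969 and 0.959. For fz3 they were Taf9, CG2898 and mRpL24, at 0.973, 0.965 and 0.963. With 27 and 96 genes at 0.9 or above over 8 libraries of shared depth and composition, these are descriptions only.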

How the data were processed

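The authors deposited raw counts of reads per gene for 8 libraries as 1 table, and a table of their own comparison. Its log2 fold changes, p-values and baseMean (a normalized signal), named per the file headers, were used only where the text says so. Per the labels' protocols, libraries were made from 100 ng of total RNA after an mRNA pull-down, with a directional kit, and read as single 50 nt reads. The submitters' processing notes name build BDGP6, TopHat2 2.0.13, HTSeq 0.6.0 and DESeq2 1.10.1, without roles. How strand and multiply matching reads were handled, and which annotation was used, is not given in the sources used here.

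Members were matched by deposited symbol. wg carries another identifier in the Ensembl 115 annotation of BDGP6.54 and was matched there by symbol. Of 62 other pathway genes written, 61 were matched (not slmb), as were 49 of 50 markers (not vas). The members and lists were chosen with earlier results of these data known. No sequences are shown.

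edgeR 4.0.16 (R 4.3.3) was run on the counts of all 8 libraries with filterByExpr, TMM scaling and a two-sided quasi-likelihood F-test without a block, at an adjusted p under 0.05. "Adjusted p" means this value unless another tool is named. Standard errors were the log2 fold change over the root of F, and 95% intervals used the moderated degrees of freedom. CPM per kb used the union of a gene's exons. Floors for a count of 0 are 3 counts over the library total and cover counting error only. The labels call the libraries of a group biological repeats and do not say how they were obtained. DESeq2 1.42.0, limma-voom (limma 3.58.1) and other alternatives are reported in the closing section. Steps were tested on simulated counts. Named genes are the 10 members, Lam, the pathway gene with the smallest p in each role and any past the threshold, the markers, and the 3 genes most correlated with wg and with fz3; genes named otherwise are fz4, the Wnt4, Wnt6 and Wnt10 neighbours of wg, dsh, pygo, lgs, lab, arr, Notum and those at 0, named after their values were seen.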

Additional observations from a re-analysis of the deposited data

How the results depend on the processing

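Each of 18 alternative settings was applied to the 10 genes and the other pathway genes; wg, fz and nkd had no value with a minimum mean of 10 CPM. The signs of fz, fz3 and pan were the same in every setting that gave a value. The number of genes called over all genes was 706, and 465 with a minimum mean of 10 CPM, 1289 by DESeq2, 439 without LamDm0 replicates 3 and 4, 72 with libraries summed in pairs, and 346 to 654 with 1 library left out (397 and 387 without LamDm0 replicate 3 or 4, 346 and 396 without control replicate 1 or 2). With library totals only, 80.4% of the calls were higher against 59.3%, and the share was 68.8% without LamDm0 replicates 3 and 4. Under library totals 682 genes were called over all genes, 548 of them higher. There 1 of the 10 genes was called higher, fz3 (log2 fold change 0.48), while fz2 and sgg reversed to 0.13 and 0.18. Without LamDm0 replicates 1 and 2, 878 genes were called over all genes, 452 higher and 426 lower. In that setting 1 of the 10 was called lower, nkd (-0.69), and fz2 and sgg reversed to 0.16 and 0.13. Without LamDm0 replicates 3 and 4, nkd reversed to 0.18, arm and Axn to -0.05 each and Apc to -0.22. With 1 library left out, wg ranged from -0.16 to 0.22 (negative without control replicate 4), fz2 from -0.21 to 0.02 and sgg from -0.09 to 0.03. Other pathway genes called higher numbered 1 with a minimum mean of 10 CPM (Cul1), 2 by DESeq2, 3 without LamDm0 replicates 1 and 2 (Cul1, ebd1 and wls), and 0 to 2 with 1 library left out. Those called lower numbered 1 without LamDm0 replicates 3 and 4 (lab) and 0 to 1 with 1 library left out. Some settings leave fewer genes or samples, and the cause of these differences was not tested.

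Same-numbered libraries did not deviate together (correlations of -0.37 to -0.03, and no LamDm0 library correlated best with the control of its number). Expression thus showed no pairing by number, but it cannot tell whether same-numbered samples were handled together, which the labels do not say. With the replicate number as a block, 332 genes were called over all genes and 0 of the 10. wg had the fewest counts of the 10, with 14 to 60 a library, and the widest interval.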
